A study of Mus musculus with 12 samples.

Results

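Complement is a cascade of blood and tissue proteins that marks microbes and debris for uptake and can open membranes by a pore. It starts from antibody and C1 (classical pathway), from sugar-binding lectins, or from spontaneous turnover of C3 that factors B and D amplify (alternative pathway), and every route meets at cleavage of C3. The liver makes most of the plasma proteins, but fibroblasts of the joint lining and macrophages also make many of them, and complement fragments are found in arthritic joints. Here the RNA of 9 complement genes of the mouse is described. C1ra, C2 and C4b belong to the classical pathway, and Cfb, Cfd and Cfp to the alternative pathway. C3 is the central component, and Serping1 and Cd55 encode inhibitors. The genes were chosen by symbol, as the rows of the deposited count table with those names, and they are 9 of 36875 symbols. All 9 passed the filter on low counts.

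RNA came from cultured fibroblast-like synoviocytes, the matrix-making cells of the joint lining, in 12 poly(A)-enriched libraries, 4 in each of 3 groups. In the resolution group the mice had drunk 1 mg/ml doxycycline in 5% sucrose water over 3 weeks and doxycycline was then withdrawn. The inflammation group had the same doxycycline course without withdrawal. The homeostasis group had 5% sucrose water alone for 3 weeks, and its descriptions call it WT. The extract protocol, the same for all 12 libraries, describes synovial fibroblasts of mice with arthritis induced by TNF, a cytokine that drives joint inflammation. The sources used here do not give the alleles, the promoter of any transgene, age, sex or the time after withdrawal. Nor do the labels tell whether the 4 libraries of a group are separate animals, so p-values reflect the spread among these libraries alone, which may be technical.

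Total counts per library ran from 18120745 to 34971537. All 13 fibroblast markers examined were detected in every group, and their summed level was 11500 to 17100 in resolution, 22200 to 25700 in inflammation and 29800 to 32200 in homeostasis, in TMM-normalized CPM (read counts scaled to a common library total). Of these 13 markers, 9 were lower and 2 higher in resolution than in homeostasis, and 6 were lower and 2 higher in inflammation. The summed level of 8 chondrocyte markers was 62.4 to 90.8 CPM in resolution, 34.3 to 44.0 CPM in inflammation and 866 to 1120 CPM in homeostasis. The mouse gene Tnf, at 0.136 to 0.467 CPM in resolution and 0.573 to 1.76 CPM in inflammation, was at 1.78 to 6.39 CPM in homeostasis. Ddx3y, on the Y chromosome, had 0 counts in the resolution libraries, 3 counts in 1 inflammation library and 0 in the other 3, and 22.2 to 26.2 CPM in homeostasis, while Xist, which silences one X chromosome in females, was at 123 to 268, 71.5 to 154 and 6.74 to 13.5 CPM in those groups. Sex of the source cells and doxycycline therefore cannot be told apart in either comparison with homeostasis. Any difference of genotype from the homeostasis group, which is called WT, cannot be told apart from them either. Homeostasis libraries 3 and 4 stood apart from 1 and 2, with C3 2.09 times, Cfb 2.0 times, C2 1.59 times and Serping1 1.39 times as high on average, so changes of the 9 genes against homeostasis are also given with either pair as the sole controls where that ends a call or moves a value by over 1.5 times.

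The start regions of the genes are shown for C3, the most abundant component of the cascade in plasma, and for C1ra and its neighbour C1s1, which encode the 2 paired proteases of C1 and changed by different amounts. The sequences are the 250 bases before the annotated RefSeq start site (build GRCm38.p6), 5′ to 3′ on the strand of the gene, with capitals for letters that match a searched motif. The C3 window is chr17:57228137-57228386 on the minus strand, the C1s1 window chr6:124542360-124542609 on the minus strand, and the C1ra window chr6:124512371-124512620 on the plus strand. By the GENCODE coordinates given below C1ra starts at 124512405, so most of its window lies inside the gene in that annotation.
C3: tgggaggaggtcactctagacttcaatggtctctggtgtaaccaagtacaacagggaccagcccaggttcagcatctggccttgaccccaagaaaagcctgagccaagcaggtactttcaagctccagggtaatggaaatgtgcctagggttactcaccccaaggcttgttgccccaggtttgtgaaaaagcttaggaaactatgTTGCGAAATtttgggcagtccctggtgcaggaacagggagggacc
C1s1: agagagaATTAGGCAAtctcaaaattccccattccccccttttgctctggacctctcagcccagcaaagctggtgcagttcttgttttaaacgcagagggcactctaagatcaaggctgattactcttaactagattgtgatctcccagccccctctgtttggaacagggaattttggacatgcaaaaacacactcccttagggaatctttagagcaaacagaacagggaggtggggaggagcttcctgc
C1ra: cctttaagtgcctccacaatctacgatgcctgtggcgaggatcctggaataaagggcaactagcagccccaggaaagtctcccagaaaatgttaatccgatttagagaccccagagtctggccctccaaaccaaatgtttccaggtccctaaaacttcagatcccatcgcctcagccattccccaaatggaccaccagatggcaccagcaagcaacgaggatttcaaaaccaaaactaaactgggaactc

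Of the 9 genes, 5 matched an entry of the promoter table: C1ra, C3, Cfd, Cfp and Cd55. Both strands were searched for 5 motifs, which were the interferon-stimulated response element core (GAAA, NN, GAAA), the STAT site TTCNNNGAA, the NF-kB site (GGGA, NN, TTCC), the C/EBP site TTGCNNAAT and the TATA box TATAAA. Windows of the same length before 32851 annotated start sites held them in 2.98%, 7.02%, 1.21%, 2.11% and 12.4%. The C/EBP letters stood in the C3 window, 45 to 37 bases before the start, and, on the opposite strand, in the window of 1 of 2 start sites of C1s1, 243 to 235 bases before it. The letters of the other 4 motifs were not in the C3 or C1s1 window, and none of the 5 was in the C1ra, Cfd, Cfp or Cd55 window. A match is a description of the letters and says nothing of binding.

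Of the 9 genes, 5 were higher in both doxycycline groups than in homeostasis (C1ra, C2, C3, Serping1 and Cd55), and the call of C2 in resolution was lost on leaving out any one of 3 libraries. C1ra and C3 were higher in both groups, with no difference between those groups past the test. Serping1 was higher still in resolution than in inflammation, and C4b and Cfb were higher in resolution than in both other groups, although the Cfb difference from homeostasis held against only some of the controls. Cd55, C2 and Cfp were highest in inflammation, and Cfd was near 0 in both doxycycline groups. By edgeR's quasi-likelihood test, with p-values adjusted by Benjamini-Hochberg over 15049 genes and a threshold of 0.05, 6 genes rose and 1 fell in inflammation against homeostasis, where 37.2% of all tested genes passed (19.0% higher and 18.3% lower). In resolution against homeostasis 7 rose and 2 fell, where 53.3% of all tested genes passed (27.5% higher and 25.8% lower). With homeostasis 3 and 4 as the sole controls 5 rose, without C2 and Cfb. In resolution against inflammation 3 rose and 3 fell, where 16.2% passed (8.52% higher and 7.64% lower). In that last comparison the counts over all genes, 1282 higher and 1149 lower, were 877 and 1233 with GC and length offsets. A replicate block over all 12 libraries gave 948 and 950, the 8 compared libraries alone 1623 and 1444, and those 8 with the block 2585 and 2223, where 3 of the 9 genes again rose and 3 fell. Leaving out 1 library gave 482 (without resolution 4) to 2360 (without resolution 2) higher and 760 to 1831 lower. The median log2 change of the 9 genes was 1.13, 0.81 and 0.05 in these 3 comparisons, beside -0.0144, -0.00672 and 0.0196 over all tested genes. The first 2 comparisons share the homeostasis libraries, the last 2 the resolution libraries, and the first and last the inflammation libraries.

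**Figure D1:**
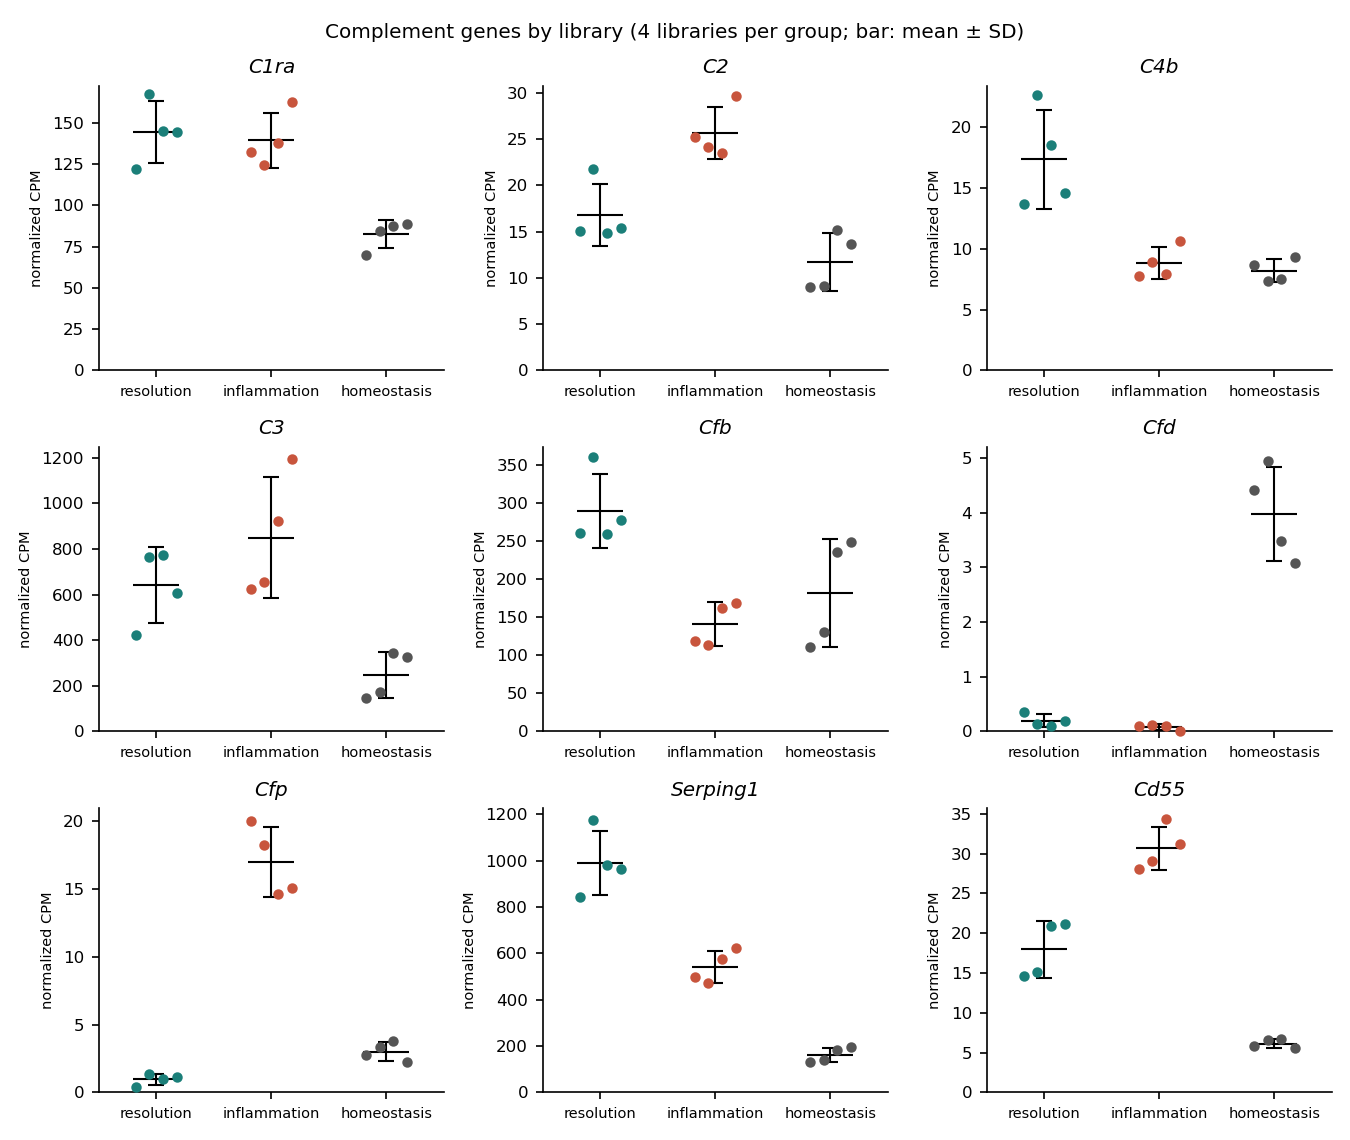
Normalized CPM (linear axes from 0) of the 9 complement genes in each library, in resolution, inflammation and homeostasis from left to right. Points are libraries and bars the mean ± SD of 4. Serping1 separates all 3 groups, at 844 to 1175, 474 to 623 and 131 to 196 CPM, while Cfp is at 14.6 to 19.97 CPM in inflammation and at most 3.76 CPM elsewhere.

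In CPM per kilobase of exon, the only scale on which levels of different genes are set side by side here, Serping1 stood first in every group, at 426 ± 59.0 in resolution, 233 ± 29.8 in inflammation and 69.6 ± 13.6 in homeostasis (SD, n = 4). C3, Cfb and C1ra took the next places in every group. C3 was at 125 ± 32.2, 165 ± 51.7 and 48.0 ± 19.8 CPM per kilobase in resolution, inflammation and homeostasis, and Cfb at 103 ± 17.2, 49.9 ± 10.1 and 64.4 ± 25.1. C3 and Cfb were within 1 SD of each other in resolution, so their order there is not settled. The same holds for Cfb and C1ra in inflammation and for Serping1 and Cfb in homeostasis. C3 and Cfb were also within 1 SD in homeostasis, but Cfb was above C3 per kilobase in every library of that group. Their count ratio there was 0.688 to 0.768, at exon lengths of 2.82 kb for Cfb and 5.14 kb for C3. The other 5 genes were all below 10 CPM per kilobase in every group. Among them Cfd ranked 5 of 9 in homeostasis, at 4.32 ± 0.930, and last in both other groups, at 0.211 ± 0.128 in resolution and 0.0846 ± 0.0583 in inflammation.

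C1ra, on chromosome 6 from 124512405 to 124523443 (GRCm38, plus strand), encodes C1r, the protease of the C1 complex that activates C1s. It was at 121.8, 167.5, 144.8 and 144.4 CPM in the resolution libraries 1 to 4, at 132.6, 124.3, 138.0 and 162.5 CPM in inflammation, and at 70.01, 84.3, 87.3 and 88.7 CPM in homeostasis. Every library of both doxycycline groups was above every homeostasis library, and the doxycycline groups overlapped. The log2 change was 0.75 ± 0.13 (SE) in inflammation against homeostasis (edgeR adjusted p = 0.000193) and 0.81 ± 0.13 in resolution against homeostasis (adjusted p = 4.53e-05). Between resolution and inflammation it was 0.05 ± 0.13, which did not pass (adjusted p = 0.806) and changed sign without resolution 2 (-0.03) or inflammation 2 (-0.01). Its near copy C1rb was at 42.5 to 57.9 CPM in resolution, 44.6 to 61.1 CPM in inflammation and 23.0 to 32.4 CPM in homeostasis. Reads of the pair may have been divided between them by the authors' counting, so each is uncertain on its own, but both were higher in each doxycycline group than in homeostasis.

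Serping1, on chromosome 2 from 84765387 to 84775444 (minus strand), encodes the C1 inhibitor, a serpin that blocks C1r and C1s and also kallikrein. Its level was 844, 1175, 982 and 964 CPM in the resolution libraries, 497, 474, 576 and 623 CPM in inflammation, and 131, 140, 181 and 196 CPM in homeostasis. No library of one group reached into another. The log2 change was 1.74 ± 0.15 in inflammation against homeostasis (edgeR adjusted p = 4.91e-08), 2.61 ± 0.16 in resolution against homeostasis (adjusted p = 9.99e-11) and 0.87 ± 0.15 in resolution against inflammation (adjusted p = 0.000492). It was thus 6.12 times as high in resolution as in homeostasis.

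The other C1 protease, C1s, which C1r activates, is encoded by C1s1, a neighbour of C1ra on chromosome 6, from 124530345 to 124542359 on the minus strand. It moved further than C1ra, with 344.7, 408.2, 473.2 and 436.4 CPM in resolution, 248.4, 249.2, 276.3 and 383.2 CPM in inflammation, and 61.7, 66.4, 83.4 and 80.9 CPM in homeostasis. Doxycycline groups were both above homeostasis and overlapped each other only through inflammation 4. Log2 changes were 1.99 ± 0.16 in inflammation and 2.51 ± 0.16 in resolution against homeostasis (edgeR adjusted p = 1.64e-08 and 3.02e-10). The step of 0.52 ± 0.16 between resolution and inflammation (adjusted p = 0.0275) kept much of its size but no longer passed without inflammation 1, 2 or 3 or resolution 3 or 4 (0.44 to 0.50, adjusted p from 0.072 to 0.116) or with offsets for GC content and length (0.41, adjusted p = 0.0771).

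Ratios of counts within a library take out library scaling, and summing the near copies takes out any division of reads between them. They also carry gene length, so they can be read between groups and not as a molar ratio. The ratio of C1s (C1s1 plus C1s2) to C1r (C1ra plus C1rb) was 2.47, 2.10, 2.83 and 2.64 in resolution, 1.61, 1.67, 1.73 and 2.00 in inflammation, and 0.777, 0.693, 0.841 and 0.779 in homeostasis. The 3 groups did not overlap. The ratio of Serping1 to C1r plus C1s was 1.47 ± 0.158 in resolution, 1.04 ± 0.0839 in inflammation and 0.822 ± 0.0722 in homeostasis (SD, n = 4 each). Each of these 6 differences had p = 0.0286 in a two-sided exact permutation test, the smallest that 4 against 4 libraries allow, and an adjusted p = 0.0312 over 12 ratio comparisons, of which 9 are reported. The inhibitor therefore moved further than the summed proteases it blocks. The difference was 0.83 ± 0.10 on the log2 scale in resolution and 0.34 ± 0.09 in inflammation, each against homeostasis. That sum includes C1r, which changed less than C1s. In inflammation Serping1 changed by 1.74, no further than C1s1 (1.99) and C1s2 (1.91). In resolution it changed by 2.61, close to C1s1 (2.51) and C1s2 (2.46). The ratios were chosen after the data had been seen.

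**Figure D2:**
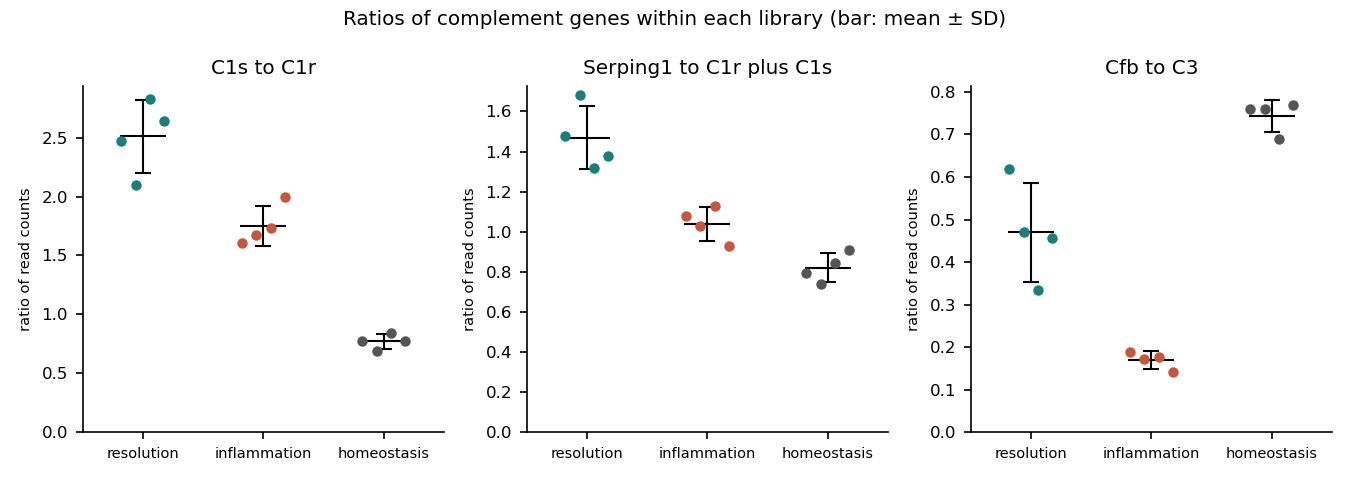
Ratios of counts within each library for 3 pairs of complement genes or sums, on linear axes, in resolution, inflammation and homeostasis from left to right. Points are libraries and bars the mean ± SD of 4. C1s to C1r is at 0.772 ± 0.0608 in homeostasis and 2.51 ± 0.311 in resolution, and Cfb to C3 is lowest in inflammation, at 0.17 ± 0.0208.

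C2 and C4b encode the parts of the classical C3 convertase, the enzyme that cleaves C3. C2, a serine protease on chromosome 17 from 34862604 to 34898265 (minus strand), was at 15.1, 21.8, 14.8 and 15.4 CPM in resolution, 25.3, 24.1, 23.5 and 29.7 CPM in inflammation, and 9.04, 9.08, 15.2 and 13.6 CPM in homeostasis. Inflammation lay above both other groups, while 2 resolution libraries were below the highest homeostasis library. C2 rose by 1.13 ± 0.19 on the log2 scale in inflammation against homeostasis (edgeR adjusted p = 0.000107). The difference of 0.52 ± 0.19 in resolution against homeostasis (adjusted p = 0.0247) was lost without resolution 2 (0.37, adjusted p = 0.0947), without homeostasis 1 or 2 (adjusted p = 0.0777 and 0.0678), and with homeostasis 3 and 4 as the sole controls (0.23, adjusted p = 0.31). C2 fell by 0.61 ± 0.19 in resolution against inflammation (adjusted p = 0.0299), which did not pass without any one of inflammation 1, 2 and 4 and resolution 1, 3 and 4 (adjusted p from 0.0528 to 0.094), nor with the replicate number as a block over 12 libraries (adjusted p = 0.0535). With that block in the 8 libraries of the pair alone the change was -0.63 (adjusted p = 0.00104).

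C4b, which encodes the fourth component, cleaved by C1s, lies on chromosome 17 from 34728380 to 34743882 (minus strand). It was at 13.7, 22.6, 18.5 and 14.6 CPM in resolution, 7.77, 8.93, 7.88 and 10.6 CPM in inflammation, and 8.63, 7.36, 7.52 and 9.33 CPM in homeostasis. The resolution libraries were all above those of both other groups, which overlapped each other. The log2 change was 1.08 ± 0.18 in resolution against homeostasis (edgeR adjusted p = 5.43e-05) and 0.98 ± 0.18 in resolution against inflammation (adjusted p = 0.000864). In inflammation against homeostasis it was 0.10 ± 0.18 and did not pass (adjusted p = 0.696). The near copy C4a was at 1.39 to 4.44 CPM in resolution, 1.32 to 2.74 CPM in inflammation and 1.41 to 2.34 CPM in homeostasis and passed in no comparison of the edgeR test with all libraries. Its change of 0.65 ± 0.32 in resolution against homeostasis (adjusted p = 0.097) passed with GC and length offsets (0.85, adjusted p = 0.0292) and without resolution 1 (0.87, adjusted p = 0.0266). Reads of the pair may have been divided between them.

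C3, at the centre of the cascade, is on chromosome 17 from 57203970 to 57228136 (minus strand). It was at 422, 767, 772 and 609 CPM in resolution, 627, 656, 921 and 1195 CPM in inflammation, and 146, 173, 343 and 324 CPM in homeostasis. Both doxycycline groups were above every homeostasis library and overlapped each other. C3 rose by 1.79 ± 0.27 on the log2 scale in inflammation (edgeR adjusted p = 5.92e-05) and by 1.38 ± 0.27 in resolution (adjusted p = 0.000316) relative to the 4 homeostasis libraries. Relative to homeostasis 1 and 2 alone these values were 2.42 and 2.00, and relative to 3 and 4 alone they were 1.37 and 0.95, all past the threshold. The difference of -0.40 ± 0.27 between resolution and inflammation did not pass (adjusted p = 0.302).

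Cfb encodes factor B, which joins cleaved C3 to form the alternative pathway convertase, and lies on chromosome 17 from 34856374 to 34862518, 85 bases from C2 on the same strand. Its level was 261, 361, 259 and 278 CPM in resolution, 119, 114, 162 and 169 CPM in inflammation, and 111, 131, 236 and 249 CPM in homeostasis. Resolution was above both other groups, by a small margin above homeostasis 3 and 4, and inflammation lay inside the range of homeostasis. Cfb rose in resolution against inflammation by 1.04 ± 0.22 (edgeR adjusted p = 0.00301). Its rise of 0.67 ± 0.22 in resolution against homeostasis (adjusted p = 0.0139) was 1.25 relative to homeostasis 1 and 2 alone and 0.27 relative to 3 and 4 alone, where it did not pass (adjusted p = 0.213). In inflammation against homeostasis the change of -0.37 ± 0.22 did not pass (adjusted p = 0.197), and it was 0.22 against homeostasis 1 and 2 (adjusted p = 0.365) and -0.76 against 3 and 4 (adjusted p = 0.00246), so no direction can be given.

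Set against C3 in the same library, Cfb gave closer values among the controls. The ratio of Cfb to C3 counts was 0.618, 0.471, 0.335 and 0.456 in resolution, 0.190, 0.173, 0.176 and 0.141 in inflammation, and 0.759, 0.760, 0.688 and 0.768 in homeostasis. All 4 inflammation libraries were below all resolution libraries, which were below all homeostasis libraries. The log2 difference was -2.13 ± 0.10 in inflammation against homeostasis, -0.69 ± 0.18 in resolution against homeostasis and 1.44 ± 0.20 in resolution against inflammation (two-sided exact permutation p = 0.0286 each, the smallest possible, adjusted p = 0.0312).

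Cfd encodes factor D, the protease that cuts factor B and a product of fat cells (also called adipsin), on chromosome 10 from 79890853 to 79892655 (plus strand). It had 7, 3, 2 and 4 counts in the resolution libraries, 2, 3, 2 and 0 counts in inflammation, and 87, 161, 61 and 68 counts in homeostasis. The group sums were 16, 7 and 377 counts, and a count of 0 allows a level of up to 3 counts, or 0.086 to 0.166 CPM across libraries. From depth-scaled sums, Cfd was 21.7 times lower in resolution than in homeostasis (95% counting interval 13.2 to 38.3) and 52.4 times lower in inflammation (25.2 to 131), intervals that cover counting error only. Both falls passed (edgeR adjusted p = 6.32e-08 and 2.6e-08), and no fold is given between the doxycycline groups, which are both near that limit. The summed level of 10 adipocyte markers was 275 to 358 CPM in resolution, 206 to 245 CPM in inflammation and 104 to 201 CPM in homeostasis. The order of this sum follows 1 gene, Lpl, at 156 to 248, 128 to 176 and 25.9 to 34.9 CPM in those groups. Fabp4, the other abundant marker, was at 82.9 to 92.1, 55.0 to 64.9 and 61.1 to 145 CPM. Of 5 tested adipocyte markers, 2 were higher and 1 lower in resolution and 1 was higher and 3 lower in inflammation, each against homeostasis. Adipoq, the fat cell hormone adiponectin, had 14 counts in all in resolution, 0 in inflammation and 80 in homeostasis, and the hormone gene Lep had 0 in every inflammation, resolution and homeostasis library. The part of these markers in the change of Cfd was not tested. In bulk RNA, fewer cells of a type and less RNA per cell cannot be told apart.

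Cfp encodes properdin, which steadies the alternative convertase and is made mostly by myeloid cells, and lies on chromosome X from 20925454 to 20931555 (minus strand). It was at 0.412, 1.36, 0.999 and 1.11 CPM in resolution, 19.97, 18.2, 14.6 and 15.0 CPM in inflammation, and 2.74, 3.32, 3.76 and 2.22 CPM in homeostasis. The 3 groups did not overlap, with resolution lowest. Cfp rose by 2.49 ± 0.23 in inflammation against homeostasis (edgeR adjusted p = 9.64e-08), fell by 1.62 ± 0.27 in resolution against homeostasis (adjusted p = 5.51e-05) and fell by 4.11 ± 0.26 in resolution against inflammation (adjusted p = 1.14e-09). It was 17.3 times lower in resolution than in inflammation.

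The sum of macrophage markers ran in the same order as Cfp. Over 16 genes it was 70.7 to 76.2 CPM in resolution, 683 to 753 CPM in inflammation and 131 to 173 CPM in homeostasis. Its largest part in inflammation was Lyz2, at 344 to 448 CPM there, 15.8 to 20.5 CPM in resolution and 24.1 to 81.5 CPM in homeostasis. Of 14 tested markers, 14 were higher in inflammation than in homeostasis, and 13 were lower in resolution than in inflammation. In resolution against homeostasis 9 were lower, 0 higher and 5 did not pass. Mrc1 did not follow the order of the sum, at 1.07 to 2.37 CPM in resolution and 0.798 to 1.36 CPM in homeostasis. Csf1r, the receptor for a macrophage growth factor, was at 9.29 to 11.1 CPM in resolution, 39.4 to 44.9 CPM in inflammation and 11.8 to 15.4 CPM in homeostasis. Cx3cr1 was at 0 in every library but homeostasis 2, which had 4 counts. The part of these markers in the change of Cfp was not tested.

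**Figure D3:**
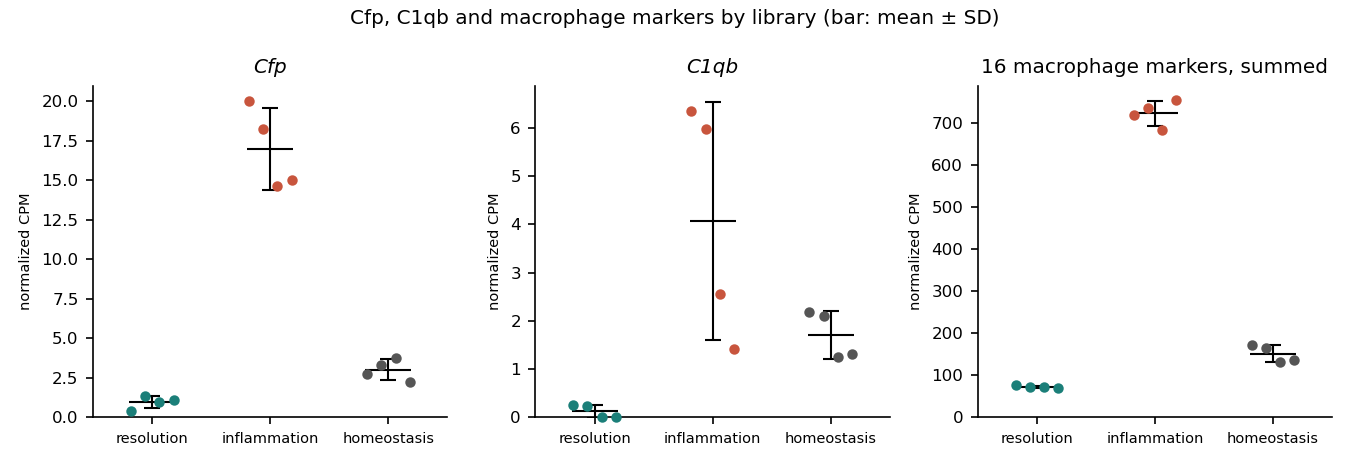
Normalized CPM (linear axes from 0) of Cfp, of C1qb and of 16 macrophage markers summed, in each library of resolution, inflammation and homeostasis from left to right. Points are libraries and bars the mean ± SD of 4. All 3 are lowest in resolution, and C1qb spreads from 1.41 to 6.35 CPM within inflammation, where the marker sum stays between 683 and 753 CPM.

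Cd55, on chromosome 1 from 130439027 to 130462744 (minus strand), encodes decay-accelerating factor, a membrane protein that takes C3 convertases apart and is a marker of lining fibroblasts in human joints. It was at 14.6, 15.1, 20.9 and 21.2 CPM in resolution, 28.1, 29.1, 34.3 and 31.2 CPM in inflammation, and 5.79, 6.56, 6.67 and 5.53 CPM in homeostasis. No 2 groups overlapped, and inflammation was highest. Cd55 rose by 2.32 ± 0.17 in inflammation (edgeR adjusted p = 3.63e-09) and by 1.55 ± 0.16 in resolution (adjusted p = 2.63e-07), each against homeostasis, and fell by 0.77 ± 0.16 in resolution against inflammation (adjusted p = 0.00208). Its near copy, named Daf2 in the table, was at 1.21 to 1.94 CPM in resolution, 2.16 to 2.69 CPM in inflammation and 0.305 to 1.14 CPM in homeostasis, and reads of the pair may have been divided between them.

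**Figure D4:**
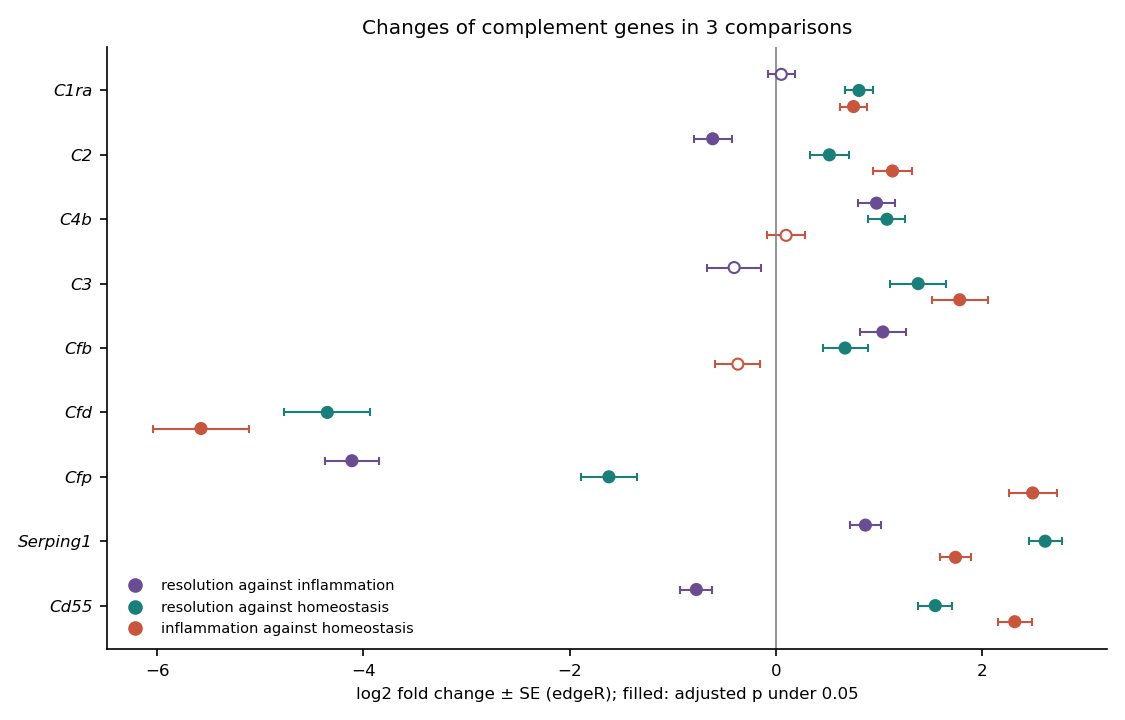
Log2 fold changes of the 9 complement genes with their SE (edgeR), for resolution against inflammation, resolution against homeostasis and inflammation against homeostasis, with positive values higher in the group named first. Filled points have an adjusted p under 0.05. The change of Cfd between resolution and inflammation, both near the limit of 3 counts, is left out, and Cfp lies at 2.49 in inflammation against homeostasis and at -4.11 in resolution against inflammation.

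Without overlap between groups were 7 of the 9 genes in inflammation against homeostasis, 8 in resolution against homeostasis and 6 in resolution against inflammation, where 35.4%, 43.5% and 18.9% of all tested genes had no overlap. In resolution, library 2 was the highest of its group for 6 of the 9 genes (C1ra, C2, C4b, Cfb, Cfp and Serping1) and library 1 the lowest for 6. In inflammation, library 4 was the highest for 6 (C1ra, C2, C3, C4b, Cfb and Serping1). Without resolution 2, the changes in resolution against homeostasis were 2.52 for Serping1, 0.92 for C4b and 0.55 for Cfb on the log2 scale. All were past the threshold, Cfb only just (edgeR adjusted p = 0.048).

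A wider list of 51 complement genes, also chosen with earlier results of these data known, gave 50 found and 31 tested. Of the 31, in inflammation against homeostasis 19 were higher and 2 lower, with 10 short of the threshold. In resolution against homeostasis 12 were higher and 8 lower, with 11 short of it, and in resolution against inflammation 4 were higher and 9 lower, with 18 short of it. Over all tested genes 37.2%, 53.3% and 16.2% passed in these comparisons, so the share in resolution against homeostasis, 20 of 31 genes, was not far from that of all genes. The median log2 change was 0.86, 0.65 and -0.04 in these comparisons.

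Among 10 tested genes of initiation and the convertases, 8 were higher in inflammation against homeostasis, where 19.0% of all tested genes were higher. In resolution against homeostasis 5 were higher and 3 lower, beside 27.5% and 25.8% of all tested genes. The 3 lower ones were C1qa, C1qb and C1qc, which encode the antibody-binding part of C1 and are made chiefly by macrophages. With homeostasis 3 and 4 as the sole controls the fall of C1qa against homeostasis, -2.54 on the log2 scale with all 4, was -1.66 and did not pass (edgeR adjusted p = 0.0791). C1qb was at 0.258, 0.234, 0 and 0 CPM in resolution, 6.35, 5.98, 2.55 and 1.41 CPM in inflammation, and 2.18, 2.09, 1.25 and 1.31 CPM in homeostasis. Resolution was below both other groups, which overlapped, and the inflammation libraries 1 and 2 were well above 3 and 4. In resolution against inflammation the log2 changes of C1qa, C1qb and C1qc were -3.97 ± 0.61, -5.04 ± 0.63 and -4.11 ± 0.54 (edgeR adjusted p = 0.000148, 1.31e-05 and 2.54e-05). Their rise in inflammation against homeostasis, by 1.44 ± 0.48, 1.24 ± 0.44 and 1.33 ± 0.42 (adjusted p = 0.0249, 0.0329 and 0.0175), did not pass for any of the 3 without inflammation 1 or without inflammation 2 (adjusted p from 0.0594 to 0.136), or with homeostasis 1 and 2 as the sole controls (adjusted p from 0.11 to 0.237), and with 3 and 4 C1qb did not pass either (1.69, adjusted p = 0.0543). Masp1, a protease of the lectin pathway, was abundant in every group, at 409 to 474 CPM in resolution, 407 to 601 CPM in inflammation and 416 to 548 CPM in homeostasis. It passed in no comparison of the edgeR test, and fell by 0.31 in resolution against inflammation with GC and length offsets (adjusted p = 0.015).

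Of 5 tested soluble regulators, 2 rose and 1 fell in either doxycycline group against homeostasis. Over all tested genes 37.2% passed in inflammation and 53.3% in resolution, so the count in resolution is near that share. Clu, which encodes clusterin, an inhibitor of the terminal pore, was at 23.3 to 42.1 CPM in resolution, 27.96 to 34.0 CPM in inflammation and 13.8 to 21.1 CPM in homeostasis. It rose by 0.86 ± 0.18 in inflammation and 0.89 ± 0.18 in resolution against homeostasis (edgeR adjusted p = 0.000753 and 0.000301). Ptx3, a pentraxin that binds C1q, fell, at 821 to 999 CPM in resolution, 1257 to 1369 CPM in inflammation and 1958 to 2700 CPM in homeostasis, by 1.36 ± 0.13 in resolution against homeostasis (adjusted p = 4.71e-08).

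Of 7 tested membrane regulators, 4 rose in each doxycycline group against homeostasis, beside 19.0% of all tested genes in inflammation and 27.5% in resolution (37.2% and 53.3% in either direction). In resolution against inflammation 0 passed by edgeR or DESeq2, and 1 was higher at an unadjusted p under 0.05. The 4 that rose were Daf2, Susd4, Cd59a and Cd59b. Cd59a, which blocks assembly of the pore, was at 5.09 to 9.95 CPM in resolution, 6.07 to 7.25 CPM in inflammation and 3.19 to 4.37 CPM in homeostasis, a rise of 0.96 ± 0.20 in resolution and 0.83 ± 0.20 in inflammation (edgeR adjusted p = 0.000511 and 0.00301). Cr1l, which encodes Crry, the main convertase inhibitor on mouse cells, was at 40.9 to 46.1 CPM in resolution, 32.5 to 42.5 CPM in inflammation and 35.0 to 41.1 CPM in homeostasis and passed in no comparison. With GC and length offsets, Cr1l was lower by 0.50 in inflammation (adjusted p = 0.00296) and by 0.63 in resolution (adjusted p = 0.000306) against homeostasis, so its direction depends on that correction.

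Of 7 tested genes of the receptor list, 5 rose and 1, C1qbp, fell in inflammation against homeostasis. Over all tested genes 19.0% were higher and 18.3% lower there. In resolution 4 fell against homeostasis, C1qbp again included, and 5 against inflammation, beside 25.8% and 7.64% of all tested genes. Among these, the log2 change of C3ar1, the receptor of C3a, was -2.06 ± 0.59 in resolution against homeostasis (edgeR adjusted p = 0.00628), and -0.99 with homeostasis 3 and 4 as the sole controls, where it did not pass (adjusted p = 0.241). Its rise of 1.496 ± 0.46 in inflammation against homeostasis (adjusted p = 0.0154) did not pass relative to homeostasis 1 and 2 alone (0.94, adjusted p = 0.121) or without inflammation 2 (1.35, adjusted p = 0.0542). Itgam, the alpha chain of complement receptor 3 on myeloid cells, was at 1.18, 1.68, 1.73 and 1.20 CPM in resolution, 49.9, 49.3, 50.7 and 67.7 CPM in inflammation, and 7.26, 7.79, 4.39 and 3.13 CPM in homeostasis. The 3 groups did not overlap, and Itgam fell by 5.22 ± 0.27 in resolution against inflammation (edgeR adjusted p = 1.51e-10). C3ar1 fell by 3.56 ± 0.56 in that comparison and C5ar1, the receptor of C5a, by 1.36 ± 0.31 (adjusted p = 0.000173 and 0.00492). Itgam and C3ar1 ran in the same order as the summed macrophage markers given above, whose part in the result was not tested. C5ar1 did not, at 1.94 to 3.46 CPM in resolution and 1.22 to 2.36 CPM in homeostasis. That change of 0.72 ± 0.33 did not pass (edgeR adjusted p = 0.0706). It passed in some alternatives, such as homeostasis 1 and 2 as the sole controls (1.09, adjusted p = 0.0333) and GC and length offsets (0.86, adjusted p = 0.044). Terminal pathway genes were little detected: 2 of 7 found genes could be tested, and Hc, the mouse gene of C5, was higher in resolution by 1.59 ± 0.53 against homeostasis and by 1.62 ± 0.53 against inflammation (edgeR adjusted p = 0.0163 and 0.0441).

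**Figure D5:**
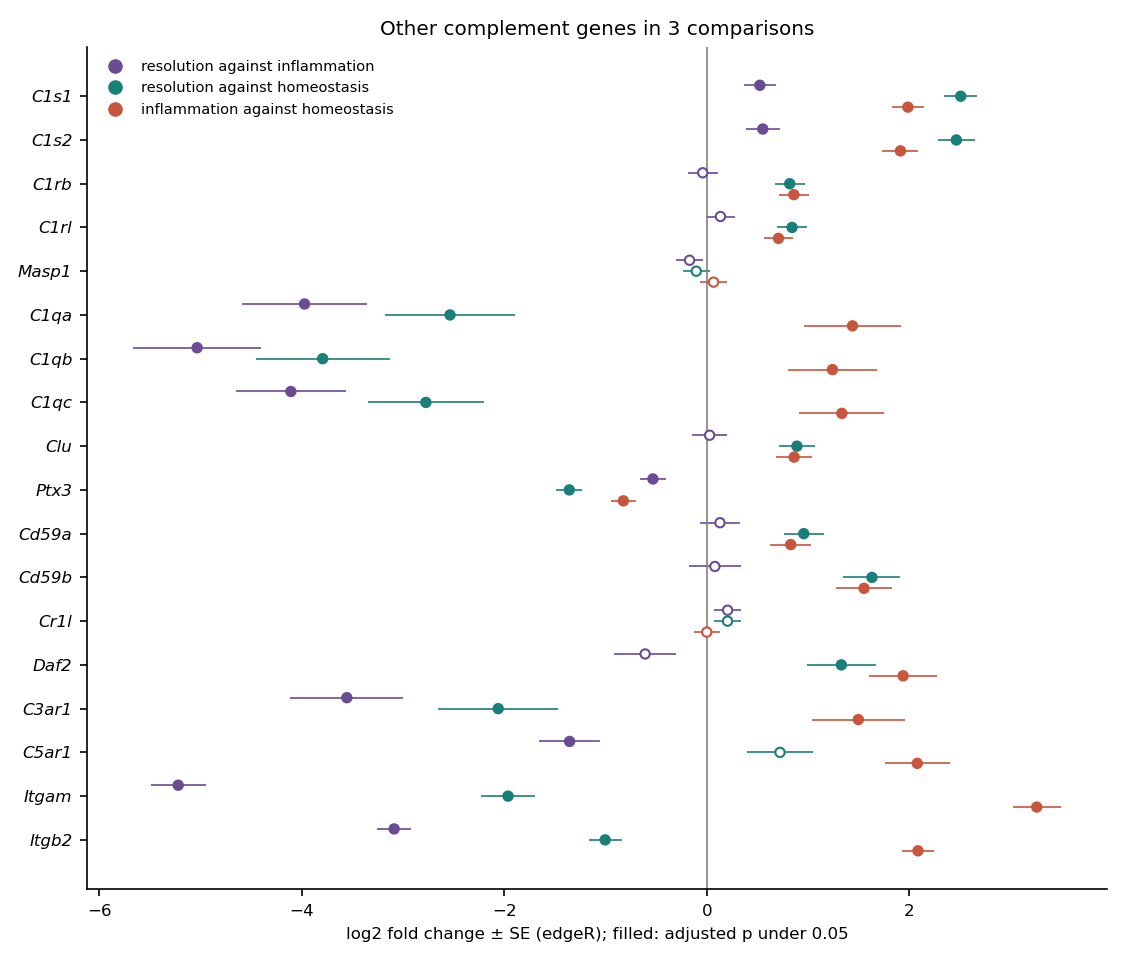
Log2 fold changes with SE (edgeR) of 18 complement genes outside the 9, for resolution against inflammation, resolution against homeostasis and inflammation against homeostasis, with positive values higher in the group named first. Filled points have an adjusted p under 0.05. C1s1 is at 2.51 in resolution against homeostasis, while C1qa, C1qb, C1qc, C3ar1, Itgam, Itgb2, Ptx3 and Masp1 lie left of 0 in both comparisons of resolution. Masp1 is unfilled in both.

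The gene whose profile was nearest to each of the 9 was found among all tested genes, as the smallest root mean square difference of log2 CPM over the 12 libraries after each gene's own mean was taken off. C1ra was nearest to its copy C1rb (0.079 log2 units) and then to Ctsk, the bone-resorbing protease cathepsin K (0.108), beside a median of 0.543 over all tested genes. Serping1 was nearest to C1s2 (0.194) and C1s1 (0.195), beside a median of 1.157. C3 was nearest to Penk (0.263) and to the acute phase gene Saa3 (0.266), beside 0.964. C4b was nearest to Avpr1a (0.182) and Cfb to Dpep1 (0.237). Cfp was nearest to Hoxc11 (0.449) and to the myeloid myosin gene Myo1f (0.497), and Cfd to Bmp4 (0.563). These are descriptions with no test, and libraries of a group share their treatment.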

How the data were processed

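The authors deposited 1 table of unnormalized estimated counts (expected counts) for each gene symbol in each library. The submitters' processing notes name the build GRCm38.p3. Aligner, counter, strand setting and annotation were not given in the sources used here. Reads of overlapping genes may therefore be shared. Of the values 1.43% were not whole (tolerance 0) and all were rounded. Of 36930 rows, 13 had no value and were left out, and repeats of 34 symbols were summed. No 2 libraries of a group agreed within sampling noise (reduced chi-square 9.49 to 104.79).

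Counts were filtered and TMM-scaled in edgeR 4.0.16 (R 4.3.3) and fitted with its quasi-likelihood test to the 12 libraries together, with no term but group, after the method had been tested on simulated data. The fitted biological coefficient of variation was 18.6%. P-values were adjusted by Benjamini-Hochberg over 15049 genes. Levels are normalized CPM with SD over 4 libraries. Ratios were tested with an exact permutation test (SciPy 1.17.1), and coordinates came from GENCODE M21.

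Between resolution and inflammation, same-numbered libraries deviated together (correlations 0.126 to 0.214 for the 4 numbers), a pairing seen in the data and not stated in the labels. The blocked fit of those 8 libraries called 2585 genes higher and 2223 lower, against 1623 and 1444 in the same 8 libraries without it. Over 12 libraries the counts were 948 and 950 with the block and 1282 and 1149 without.

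Named were all 9 complement genes, then tested genes of the wider list within their role. Members and lists were chosen with earlier results of these data known. Alternatives were other size factors, DESeq2 1.42.0, other filters, the 2 compared groups alone, a replicate block, either pair of homeostasis libraries, leaving out each library and, chosen after seeing the data, GC and length offsets and the 8-library block. The ratios were also chosen then. The ratio of 1 further pair is not reported here, and genes of the wider list that are not named stand in its counts alone.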

Additional observations from a re-analysis of the deposited data

Results flagged for a closer look

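In 84 sets of 4 libraries, 27 of them for the 9 complement genes, the highest and lowest library were compared with the nearest other one, and 2 stood apart by Dixon's criterion, which chance meets in about 1 in 20 sets. C2 in resolution 2 was at 21.8 CPM, against 14.8 to 15.4 CPM in the other 3 resolution libraries, and the difference of C2 between resolution and homeostasis did not pass without it. Itgam in inflammation 4 was at 67.7 CPM, against 49.3 to 50.7 CPM in the other 3 inflammation libraries.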

How the results depend on the processing

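Of 583 recomputed values for the 27 changes of the 9 genes, 567 kept their direction and their side of the threshold, 12 no longer passed, 1 newly passed and 3 turned round. Of 22 called changes, 19 were called in every alternative, the exceptions being C2 in resolution against homeostasis and against inflammation and Cfb in resolution against homeostasis. The members called lower in inflammation numbered 2 with homeostasis 3 and 4 as the sole controls. In resolution against inflammation over all genes, leaving out 1 library gave 482 (without resolution 4) to 2360 (without resolution 2) higher and 760 to 1831 lower (the same libraries), beside 1282 and 1149. The count of higher genes also fell by over 1.5 times without inflammation 1 or 2 or resolution 1 or 3. There, GC and length offsets gave 877 higher and 1233 lower, the replicate block over 8 libraries 2585 and 2223 (1623 and 1444 without it), and the block over 12 libraries 948 and 950. The block over 12 libraries changed 1 call of the 9 genes, C2 in resolution against inflammation (-0.61, adjusted p = 0.0535 by edgeR). Homeostasis shared numbers with no pairing seen in the data: correlations were -0.213 to 0.08 with inflammation and -0.228 to -0.003 with resolution.

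Turned directions, on the log2 scale, were those of changes that had not passed. In resolution against inflammation, leaving out 1 library gave -0.026 (without resolution 2) to 0.128 for C1ra, -0.131 to 0.054 for C1rb, -0.059 to 0.268 for Cd59a, -0.035 to 0.129 for Cd59b and -0.143 to 0.138 for Clu. There, GC and length offsets gave 0.074 for C1rb, -0.11 for Cd59a, -0.15 for Cd59b and -0.13 for Cr1l, and Clu was -0.021 with upper-quartile factors and -0.008 with the 8-library block. In inflammation against homeostasis, leaving out 1 library gave -0.124 to 0.282 for C4a, -0.011 to 0.174 for Masp1 and -0.042 to 0.089 for Cr1l, and homeostasis 1 and 2 as controls gave 0.22 for Cfb, -0.04 for C4a and -0.074 for Masp1. Cr1l was 0.005 there with DESeq2 size factors, 0.074 with upper-quartile factors, 0.002 in DESeq2, 0.032 with at least 1 CPM in 4 libraries, 0.034 in the 2 groups alone and 0.10 against homeostasis 3 and 4. In resolution against homeostasis Cr1l was -0.63 with the offsets and Masp1 0.063 against homeostasis 3 and 4. The cause was not tested.

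Depth limits Cfd, Hc, C3ar1 and C1q genes, with few counts in some groups. Doxycycline, the sex of the source cells and any difference of genotype or culture cannot be told apart against homeostasis. RNA levels do not show protein or cleavage.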
